A study of Homo sapiens with 6 samples.

Results

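The genes described here are 5 caspases (CASP2, CASP4, CASP6, CASP8 and CASP9), the caspase-activating scaffold gene APAF1, the caspase inhibitor gene XIAP and the XIAP antagonist gene DIABLO. All probes whose annotated symbol, current or former, was one of these 8 names were taken, which gave 21 of the 47231 probes on the array and 8 of the 20046 genes that probes name. Of these 21 probes, 13 were detected widely enough to be tested, and they covered 7 of the 8 genes. The study used U251, an established human glioblastoma cell line, grown in serum-containing medium and transduced with lentivirus made from pLKO1.5 vectors 5 days before total RNA was taken. One group expressed an shRNA against cyclophilin B (shCypB, 3 arrays), and the other expressed a non-target control shRNA (shCON, 3 arrays). Both groups therefore carried a lentiviral shRNA. Within a group, the arrays are labelled as biological replicates, without word on how the cultures were kept apart. A single shRNA against cyclophilin B was profiled in a single cell line, so loss of cyclophilin B and any other effect of that shRNA cannot be told apart.

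Caspases are proteases that are made as inactive precursors and cut their substrates after aspartate. In the mitochondrial route of apoptosis, cytochrome c released from mitochondria binds APAF1, which assembles the apoptosome and activates the initiator CASP9. CASP8 is the initiator that death receptors recruit, CASP2 is activated on a platform built with the adaptor CRADD, and CASP6 acts downstream as an executioner. CASP4 senses lipopolysaccharide in the cytosol and cuts gasdermin D in pyroptosis. XIAP binds and inhibits active caspases, and DIABLO, also called SMAC, relieves that inhibition when it leaves mitochondria. Most of this control acts on proteins, which the arrays did not measure.

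Signals were bead intensities of Illumina HT-12 version 4 arrays, background corrected, quantile normalized and put on a log2 scale, on which a difference of 1 is a 2-fold change. A probe counts as detected on an array where its deposited detection p is below 0.05, and it was tested where it was detected on at least 3 of the 6 arrays. Between 16597 and 18700 probes were detected per array, and the Pearson r of log2 signals between arrays was 0.987 to 0.994 within groups and 0.958 to 0.965 between groups. The targeted gene PPIB, which encodes cyclophilin B, was detected on 0 shCypB arrays and 3 shCON arrays. It was at least 1.45-fold lower in shCypB cells, and its fitted log2 change was -1.08 (adjusted p = 0.0033, limma). Its only probe lay near the background, with log2 signals of 6.04, 5.68 and 5.35 on the shCON arrays. This PPIB call held under all 16 alternatives that gave a value, with log2 changes between -1.33 and -0.56. Without background correction the change was -0.59. Of 8 glioblastoma and astrocyte-lineage markers 7 were tested (GFAP, FABP7 and NES lower in shCypB cells, EGFR and SLC1A3 higher), and S100B was detected on 0 arrays. The calls of EGFR and SLC1A3 were each lost under 3 of 18 alternatives (adjusted p up to 0.090 and 0.060). EGFR had a log2 change of 0.41 at the probe that passed and 0.22 at its other tested probe, which did not. VIM and CD44 did not pass at their brightest probes (log2 changes of -0.22 and 0.22). Each had another tested probe that passed (-0.38 for VIM and 0.35 for CD44). Of 10 markers of other cell types, 7 were not tested. Of these, PTPRC, EPCAM, CDH1, MOG and RBFOX3 were detected on 0 arrays, PECAM1 on 2, and MBP on at most 1 at any probe. COL3A1, CD14 and VWF were tested and did not pass (log2 changes of -0.44, -0.48 and -0.52). VWF passed under 3 of 17 alternatives, among them median scaling (log2 change -0.84), and COL3A1 under 2, and their part in the other results was not tested.

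Of the 13 tested probes, 1 was higher and 2 were lower in shCypB cells at an adjusted p below 0.05, and 10 did not pass. Over all 17608 tested probes 38.5% passed, 20.3% higher and 18.2% lower, so the share of these probes that passed was no greater than over the array. The probe that was higher belongs to CASP4 and the probes that were lower belong to CASP2. The median log2 change of the 13 probes was 0.09, against 0.02 over all tested probes, and their median absolute log2 change was 0.19, against 0.29. The 3 shCypB values did not overlap the 3 shCON values for 5 of the 13 probes, and the same held for 50.4% of all tested probes. In these bulk cultures, a change in the cells present and a change in RNA per cell cannot be told apart.

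**Figure D1:**
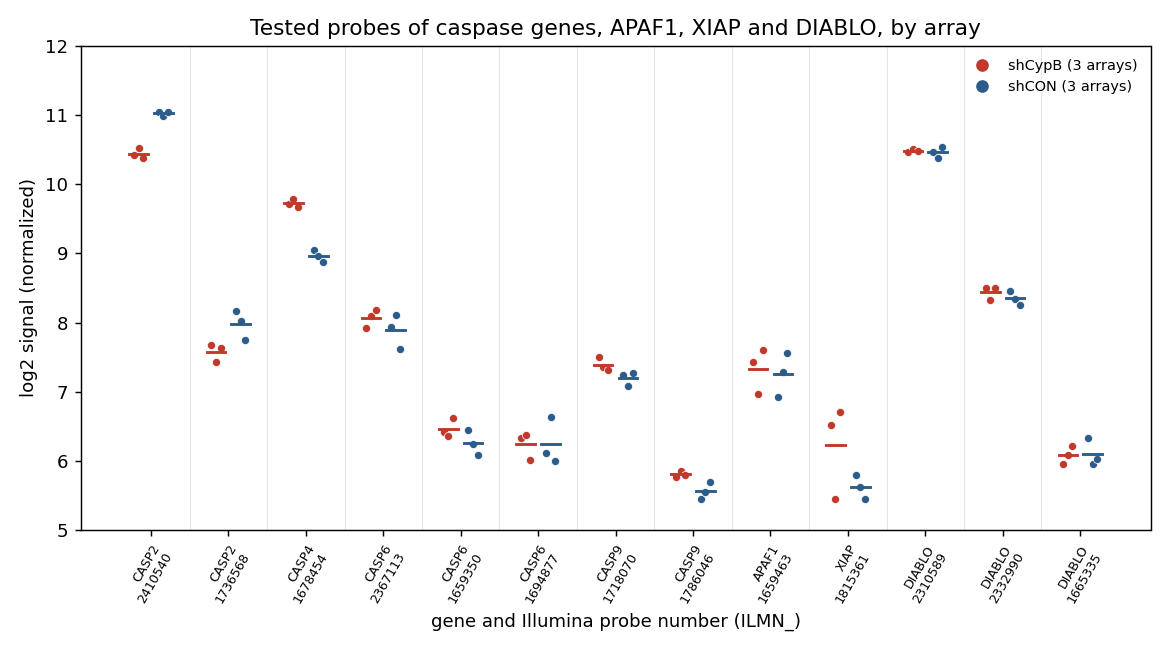
Normalized log2 signal (y axis) of each of the 13 tested probes (x axis), with 1 point per array, shCypB in red left of shCON in blue, and a bar at each group's mean of 3 arrays. CASP4 stands higher on all 3 shCypB arrays, both CASP2 probes stand lower, and the shCypB arrays of XIAP are spread from 5.45 to 6.70, while heights cannot be compared between probes.

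The sequences just before the annotated starts of the 2 genes that changed are shown to give their genomic setting. They are the 250 bases before the start, from RefSeq on GRCh38.p14. CASP4 lies on chromosome 11 (chr11:104968575-104968824, minus strand) and CASP2 on chromosome 7 (chr7:143288101-143288350, plus strand, the first of its 2 listed starts).
CASP4: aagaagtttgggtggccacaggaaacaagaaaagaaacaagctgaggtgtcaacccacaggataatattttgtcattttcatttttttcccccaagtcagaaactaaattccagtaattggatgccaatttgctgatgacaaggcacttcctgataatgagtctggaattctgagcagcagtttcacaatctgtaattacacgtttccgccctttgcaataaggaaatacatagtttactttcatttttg
CASP2: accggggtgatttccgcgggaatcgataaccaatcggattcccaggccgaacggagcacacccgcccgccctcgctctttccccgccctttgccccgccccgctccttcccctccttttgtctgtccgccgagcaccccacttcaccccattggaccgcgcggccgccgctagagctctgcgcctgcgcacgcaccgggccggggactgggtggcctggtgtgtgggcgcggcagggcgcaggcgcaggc
The CASP4 window has a GC content of 38.0%, and the CASP2 window has 71.2%, against a median of 58.0% over 35116 such windows. Neither holds the AP-1 letters TGANTCA, the STAT letters TTCNNNGAA, the MYC and MAX letters CACGTG or the E2F letters TTTGGCGC or TTTCCCGC on either strand, so no letters are in capitals. Over all windows these letters are present in 6.57%, 6.57%, 6.34%, 0.55% and 1.39%. All 8 genes matched, with 17 windows, and the only matches were in CASP8, where 1 window holds TGANTCA and another holds TTCNNNGAA.

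CASP4, the inflammatory caspase of the set, was higher in shCypB cells. Its probe ILMN_1678454 had log2 signals of 9.72, 9.78 and 9.67 on the shCypB arrays, against 9.05, 8.96 and 8.88 on the shCON arrays. Every shCypB array was above every shCON array. The log2 change was 0.76 ± 0.09 (standard error of the limma fit, 95% interval 0.54 to 0.98, adjusted p = 0.00082), a 1.69-fold difference. This call held under all 17 alternatives tried, with changes between 0.68 and 0.81. The other CASP4 probes, ILMN_1774585 and ILMN_1778059, were detected on 0 of 6 arrays and were not tested, so the rise rests on a single probe.

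CASP2, the initiator that is activated with CRADD, was lower in shCypB cells at both of its tested probes. ILMN_2410540 gave log2 signals of 10.42, 10.52 and 10.38 in shCypB cells, against 11.05, 10.99 and 11.05 in shCON cells. The groups were further apart than the spread within either of them, with a log2 change of -0.59 ± 0.09 (interval -0.80 to -0.37, adjusted p = 0.0021), which makes the signal 1.5-fold lower. ILMN_1736568 gave 7.67, 7.43 and 7.64 in shCypB cells, against 8.17, 8.03 and 7.75 in shCON cells. Here the groups nearly met, and the log2 change of -0.40 ± 0.13 was close to the threshold (adjusted p = 0.047). The first of these calls held under all 17 alternatives, with changes between -0.63 and -0.54. The second was lost under 8 of them (adjusted p up to 0.14), among them leaving out any 1 array other than shCON replicate 3. The remaining CASP2 probe, ILMN_2296057, was detected on 0 shCypB arrays and on 1 shCON array and was not tested.

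The initiator of the mitochondrial route, CASP9, did not pass at either probe. ILMN_1718070 had log2 signals of 7.51, 7.36 and 7.32 in shCypB cells, against 7.24, 7.08 and 7.27 in shCON cells. ILMN_1786046 had 5.77, 5.85 and 5.79 in shCypB cells, against 5.45, 5.55 and 5.70 in shCON cells. At both probes the shCypB arrays were all above the shCON arrays, by little. The log2 changes were 0.19 ± 0.10 (interval -0.05 to 0.43, adjusted p = 0.19) and 0.24 ± 0.10 (interval 0.0037 to 0.47, adjusted p = 0.10). Rises between 0.0037 and 0.43 on the log2 scale lie within both intervals, and only the first interval includes no change. ILMN_1786046 lay near the background, with a detection p of 0.023 on shCON replicate 1. Its log2 change was 0.10 without background correction (adjusted p = 0.32, limma) and 0.08 with median scaling (adjusted p = 0.67, limma).

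APAF1, the scaffold that CASP9 is activated on, varied more within groups than between them. Its tested probe ILMN_1659463 had log2 signals of 7.43, 6.97 and 7.60 in shCypB cells, against 6.92, 7.28 and 7.56 in shCON cells. The groups overlapped almost fully, and the log2 change was 0.08 ± 0.21 (interval -0.41 to 0.57, adjusted p = 0.79). The other APAF1 probe, ILMN_2344798, was detected on 1 shCypB array and on 0 shCON arrays.

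XIAP, the caspase inhibitor, had the widest interval of the 13 probes. Its only probe, ILMN_1815361, had log2 signals of 6.52, 5.45 and 6.70 in shCypB cells, against 5.79, 5.63 and 5.45 in shCON cells. Replicates 1 and 3 of shCypB were above every shCON array, while shCypB replicate 2 was at the lower end of the shCON values. The log2 change was 0.60 ± 0.31 (interval -0.11 to 1.31, adjusted p = 0.16) and did not pass. The outcome depended on that 1 array, since without shCypB replicate 2 the log2 change was 0.99 (adjusted p = 0.0038). XIAP also passed, with a smaller log2 change of 0.32 (adjusted p = 0.049), in the authors' processed table.

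DIABLO, the antagonist of XIAP, gave no change that passed at any of its 3 probes. ILMN_2310589 had log2 signals of 10.46, 10.51 and 10.48 in shCypB cells, against 10.46, 10.38 and 10.53 in shCON cells. The values were interleaved, with a log2 change of 0.03 ± 0.09 (adjusted p = 0.85) and an interval of -0.19 to 0.24. ILMN_2332990 ranged from 8.32 to 8.50 in shCypB cells and from 8.25 to 8.46 in shCON cells, with a log2 change of 0.09 ± 0.10 (interval -0.15 to 0.33, adjusted p = 0.55). ILMN_1665335 ranged from 5.95 to 6.21 in shCypB cells and from 5.96 to 6.32 in shCON cells, with a log2 change of -0.02 ± 0.13 (interval -0.32 to 0.29, adjusted p = 0.93).

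CASP6, the executioner of the set, did not pass at any of its 3 probes. ILMN_2367113 had log2 signals of 7.92, 8.09 and 8.18 in shCypB cells, against 7.94, 8.11 and 7.62 in shCON cells. Apart from shCON replicate 3, which was lower, the arrays of both groups lay close together, and the log2 change was 0.18 ± 0.14 (interval -0.16 to 0.51, adjusted p = 0.37). ILMN_1659350 had a log2 change of 0.20 ± 0.13 (interval -0.09 to 0.50, adjusted p = 0.25). ILMN_1694877 had a log2 change of -0.01 ± 0.19 (interval -0.44 to 0.42, adjusted p = 0.97).

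**Figure D2:**
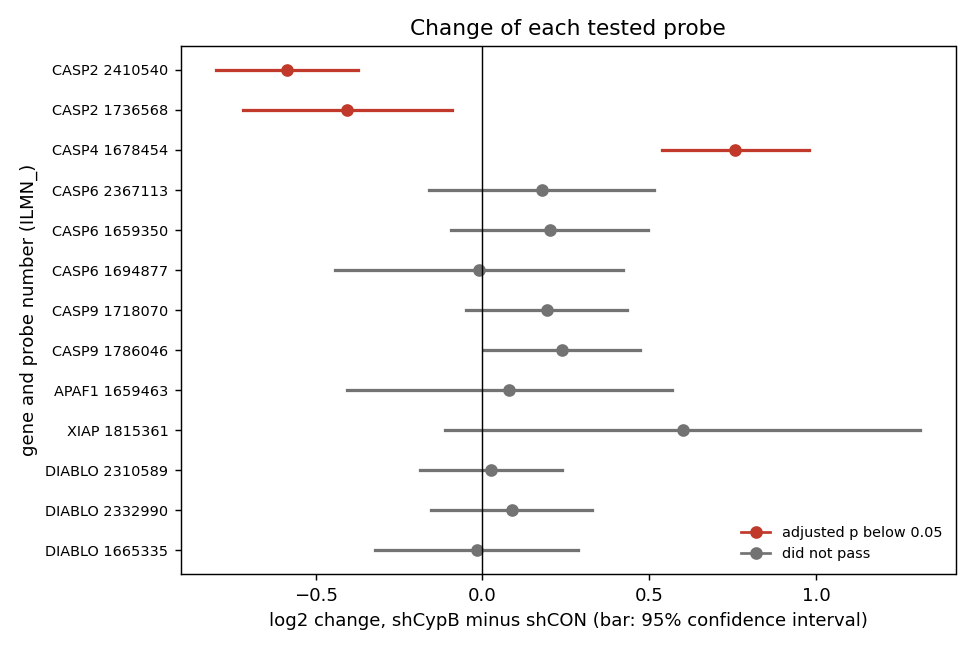
Log2 change of each tested probe (x axis, shCypB minus shCON) with its 95% confidence interval from the limma fit, 1 row per probe (y axis). The 3 probes in red, 1 of CASP4 and 2 of CASP2, passed at an adjusted p below 0.05, and the interval of XIAP is the widest, from -0.11 to 1.31.

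CASP8, the initiator at death receptors, was not detected reliably in these cells. Of its 4 probes, ILMN_1673757, ILMN_1787749 and ILMN_1809313 were detected on 0 of 6 arrays. ILMN_2377733 had an intensity of 86.6 on shCypB replicate 1, where it was detected, and of 61.5 and 77.8 on the other shCypB arrays, against 57.9, 67.5 and 63.8 on the shCON arrays, where it was not. No level or direction can be given for CASP8 from these probes. Over all 8 untested probes, 5 were detected on 0 arrays and 3 on 1 array each. Their deposited intensities lay between 47.9 and 99.7, and the median over all probes was 75.4 to 82.3 per array.

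**Figure D3:**
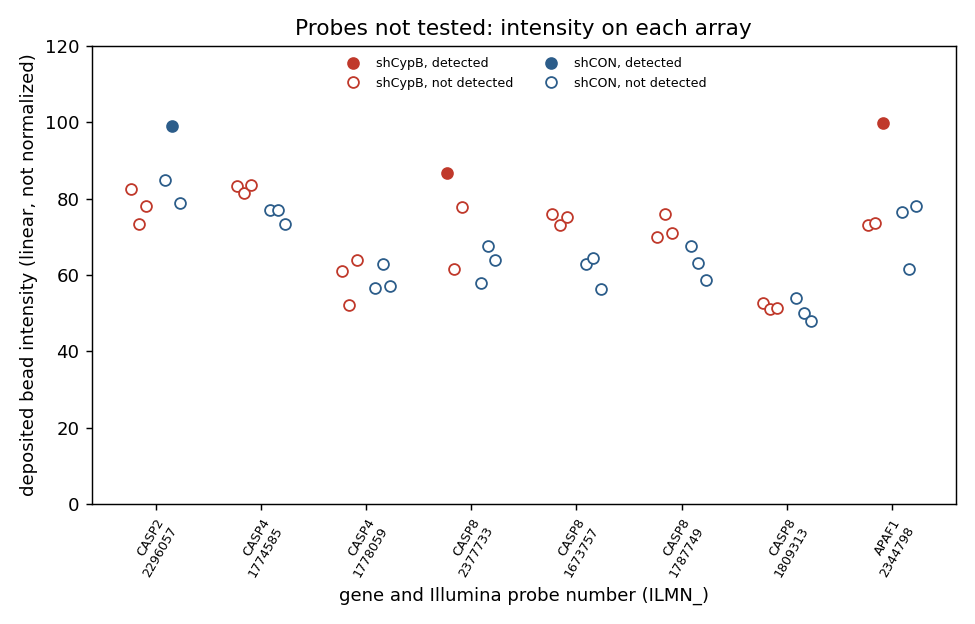
Deposited bead intensity (y axis, linear and not normalized) of the 8 probes that were not tested (x axis), 1 point per array, shCypB in red left of shCON in blue, filled where the detection p was below 0.05. A single array is filled for each of CASP2 (shCON), CASP8 (shCypB) and APAF1 (shCypB), and all other points are open.

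Probes of the same gene gave changes that were compared directly, by fitting the difference of the 2 probes on each array. The 13 tested probes form 8 such pairs, in CASP2, CASP6, CASP9 and DIABLO. None passed in the limma fit, with a lowest adjusted p of 0.68 and a lowest unadjusted p of 0.33. Over all genes 5.38% of 3994 probe pairs passed, a share at which none of 8 is not unusual. For the CASP2 probes the changes differed by -0.18 ± 0.18 (interval -0.58 to 0.22).

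Among the 10139 genes compared, those whose signals over the 6 arrays were most like those of CASP4 were PHB1, PID1 and CYB561D1. Their Pearson r was 0.9996, 0.9991 and 0.9985. They had log2 changes of 0.37, 1.65 and 0.49. For CASP2 at ILMN_2410540 they were CBX6, GJB2 and ARHGEF10, with r of 0.9991, 0.9989 and 0.9988 and log2 changes of -0.52, -1.17 and -1.61. These values describe 6 arrays of 2 groups, and 982 of 10139 genes had an r above 0.95 with CASP4 and 1009 with CASP2.

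Around these 8 genes, 64 other genes of caspase control were listed by role and 41 of them were tested, with the brightest tested probe standing for each gene. In shCypB cells 9 were higher, 13 were lower and 19 did not pass, with a median log2 change of 0.02. Only 5 were higher without any 1 of the shCypB arrays or without shCON replicate 1, and 8 were lower without shCypB replicate 1. Over all 10517 tested genes 43.8% passed, 23.1% higher and 20.8% lower, with a median of 0.03. Of the other caspases listed, CASP5, CASP10 and CASP14 were detected on 0 arrays. CASP1, the inflammatory caspase that matures interleukin 1 beta, was higher by 0.41 ± 0.11 (adjusted p = 0.022). This call was lost under 11 of 17 alternatives (adjusted p up to 0.15). Among them was leaving out any 1 array other than shCON replicate 3. The other tested CASP1 probe had a log2 change of 0.42 and did not pass.

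Among partners of caspase recruitment, CRADD, the adaptor that links CASP2 to its platform, had a log2 signal of 10.41 ± 0.12 in shCypB cells and 8.87 ± 0.07 in shCON cells (SD, n = 3 arrays each). Its log2 change of 1.54 ± 0.10 (adjusted p = 7.7e-05, limma) ran opposite to that of CASP2. PIDD1, which completes the CASP2 platform, was at -0.25 ± 0.21 (adjusted p = 0.39). Of the 6 tested genes in this list, 1 was higher, 0 were lower and 5 did not pass, with a median log2 change of 0.05.

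Of 9 tested genes of the apoptosome and mitochondrial death factors, 1 was higher, 4 were lower and 4 did not pass, with a median log2 change of 0.09. CYCS, which encodes the cytochrome c that binds APAF1, was higher by 0.75 ± 0.19 (adjusted p = 0.017). This call was lost under 2 of 18 alternatives. These were leaving out shCypB replicate 3 (log2 change 0.67, adjusted p = 0.060) and a threshold of adjusted p below 0.01. The shCON signals of CYCS were 6.46, 6.47 and 5.81, and without the last array the log2 change was 0.54. In the authors' processed table it was 0.42. HTRA2, a mitochondrial protease that antagonises inhibitor of apoptosis proteins as DIABLO does, had a log2 signal of 5.82 ± 0.22 in shCypB cells and 7.37 ± 0.0076 in shCON cells (SD, n = 3 arrays each). Its log2 change was -1.56 ± 0.13 (adjusted p = 0.00015), with -1.64 at its other probe. The HTRA2 call held under all 18 alternatives, but its size depended on the processing. The change was -0.91 without background correction and -0.95 in the authors' processed table. The pore-forming BCL2 family gene BAX had a log2 change of -0.79 ± 0.11 (adjusted p = 0.0013, and -0.19 at its other probe, which did not pass). The mitochondrial nuclease gene ENDOG had a log2 change of -0.60 ± 0.17 (adjusted p = 0.028), and APIP, whose product binds APAF1, had a log2 change of -0.43 ± 0.13 (adjusted p = 0.030). The calls of ENDOG and APIP were lost under 6 and 7 of 18 alternatives, with an adjusted p of up to 0.086 and 0.098.

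Of 5 tested inhibitors of apoptosis and their antagonists, 2 were higher, 2 were lower and 1 did not pass, with a median log2 change of -0.45. BIRC2, a ubiquitin ligase of the same family as XIAP, was higher by 0.70 ± 0.14 (adjusted p = 0.0057, and by 0.52 at its other probe). BIRC6, a giant member of the family, was higher by 0.46 ± 0.13 (adjusted p = 0.028), a call lost under 6 of 18 alternatives (adjusted p up to 0.081). BIRC5, which encodes survivin and also serves in mitosis, had a log2 change of -0.60 ± 0.11 (adjusted p = 0.0047). SEPTIN4, an isoform of which antagonises XIAP, had a log2 change of -1.57 ± 0.13 (adjusted p = 0.00015) and of -1.31 at its other probe. The list thus held members of the inhibitor family on both sides.

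Of 7 tested genes of death receptors, ligands and adaptors, which act upstream of CASP8, 1 was higher, 3 were lower and 3 did not pass, with a median log2 change of -0.19. FADD, the adaptor that recruits CASP8, had a log2 signal of 8.46 ± 0.10 in shCypB cells and 9.65 ± 0.13 in shCON cells (SD, n = 3 arrays each). Its log2 change was -1.19 ± 0.11 (adjusted p = 0.00025, limma). The TRAIL receptor gene TNFRSF10B had a log2 change of -0.62 ± 0.11 (adjusted p = 0.0034) and the adaptor gene TRADD of -0.55 ± 0.10 (adjusted p = 0.0050). TNFSF10, which encodes TRAIL, was higher by 0.50 ± 0.16 (adjusted p = 0.040), a call lost under 8 of 18 alternatives (adjusted p up to 0.13). CFLAR, which encodes the CASP8 inhibitor FLIP, was at -0.06 ± 0.09 (adjusted p = 0.68).

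Of 13 tested genes in the list of caspase substrates, which also holds DFFB, the nuclease bound by the substrate DFFA, 3 were higher, 4 were lower and 6 did not pass, with a median log2 change of 0.08. DFFA, the inhibitor of the apoptotic nuclease, had a log2 change of -1.41 ± 0.11 (adjusted p = 0.00012). Its 3 tested probes lay between -1.41 and -0.30, and 2 of them passed. DFFB was higher by 0.44 ± 0.14 (adjusted p = 0.044), a call lost under 9 of 18 alternatives (adjusted p up to 0.12). The channel gene PANX1 was higher by 0.61 ± 0.10 (adjusted p = 0.0030) and the spectrin gene SPTAN1 by 0.47 ± 0.10 (adjusted p = 0.0066). The lamin gene LMNB1 had a log2 change of -0.45 ± 0.12 (adjusted p = 0.024), lost under 7 of 18 alternatives (adjusted p up to 0.074).

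**Figure D4:**
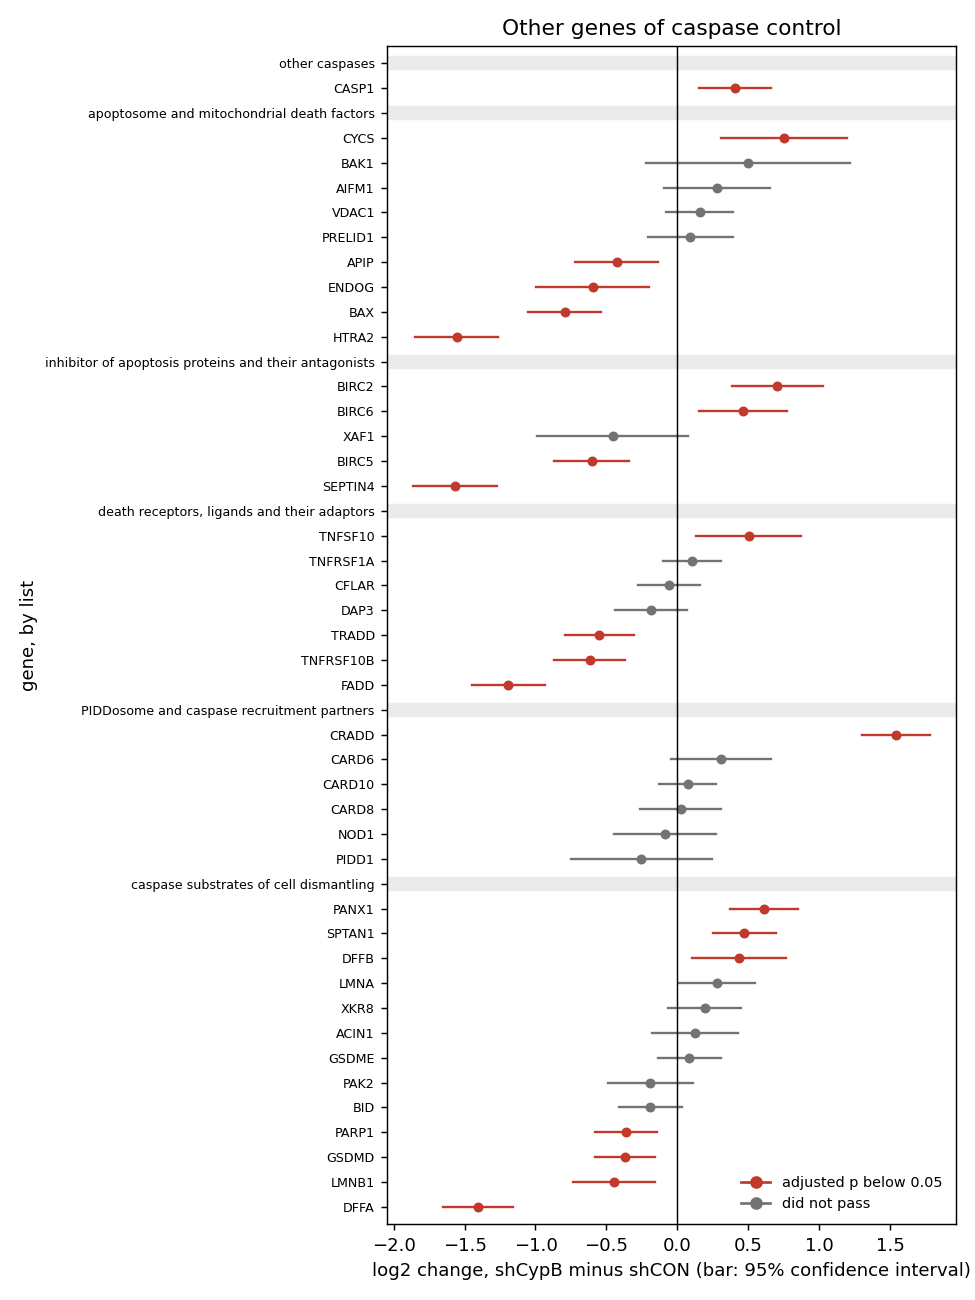
Log2 change (x axis, shCypB minus shCON, with 95% confidence interval) of the 41 tested genes around the caspases (y axis), grouped by list and ordered by change within each list, in red where the adjusted p was below 0.05. CRADD has the greatest rise (1.54), and SEPTIN4 (-1.57), HTRA2 (-1.56), DFFA (-1.41) and FADD (-1.19) have the greatest falls among these 41 genes. Without background correction, which is not drawn, HTRA2 fell less (-0.91) than DFFA (-1.15) and FADD (-1.05).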

How the data were processed

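The authors deposited 2 tables of the 6 arrays. The first holds deposited bead signal intensity on a linear scale, not normalized, and beside each value its deposited detection p-value, per the file headers. The second holds the authors' processed intensity and served as an alternative. The submitters' processing notes name Partek only, and how that table was normalized is not given in the sources.

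Background was corrected with limma's normexp method (limma 3.58.1, R 4.3.3), which took the negative controls from the detection p-values, with an offset of 16. Quantile normalization and a log2 transform followed. Groups were compared with lmFit and eBayes (4 residual degrees of freedom, 3.55 prior), with Benjamini-Hochberg adjustment over 17608 probes. This fit was tested on simulated log2 signals, which left the background correction, the normalization and the detection filter untested. Errors beside log2 changes are standard errors of this fit, and adjusted p values are from it unless another is named. With 3 arrays per group, which limits the precision, an exact permutation test cannot go below p = 0.1. A fold is written "at least" where a probe was undetected on all arrays of 1 group, and it uses floors of 5.12 to 5.29 on the log2 scale, the lowest signals of detected probes per array.

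The probe table gives 30113 probes 1 gene, 8 probes several genes and 17110 probes none. Current symbols came from RefSeq (GRCh38.p14), and 0 member probes were found by a former symbol only. The genes, the lists and the tests were chosen with earlier results of these data known. All probes of the 8 genes were named. From each list, the text names up to 5 passing genes, those with the greatest changes. PIDD1 and CFLAR, which did not pass, were named after their values were seen. Likeness took the 3 genes with the highest Pearson r to the CASP4 and CASP2 probes of smallest p. It left out pseudogenes, open reading frames, genes without a listed type and symbols that begin with LOC, FLJ, KIAA or FAM. That left 10139 genes to compare. The files name no slide, so none could be a block.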

Additional observations from a re-analysis of the deposited data

Results flagged for a closer look

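Among the 8 probes that were not tested, 2 were detected on 1 shCypB array and were brighter there than on every shCON array. CASP8 at ILMN_2377733 had a log2 signal of 5.22 on shCypB replicate 1 and passed the detection threshold there, against 4.67 at most on the shCON arrays. APAF1 at ILMN_2344798 had 5.52 on shCypB replicate 3 and passed the threshold there, against 4.99 at most on the shCON arrays. The other shCypB arrays did not detect either probe, and by its definition a detection threshold of 0.05 lets through about 5% of negative control beads. Groups of 3 arrays are too small for a test of single outlying samples.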

How the results depend on the processing

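CASP4 and the CASP2 probe ILMN_2410540 passed under all 17 alternatives, including the authors' table. XIAP and CASP9 at ILMN_1786046 had no value under the stricter detection filter. The CASP2 probe ILMN_1736568 lost its call without the detection filter (log2 change -0.40, adjusted p = 0.11) and at a threshold of adjusted p below 0.01, chosen after seeing the data (-0.40), so 1 CASP2 probe was then called lower. Leaving out 1 array at a time, which lost the call for every array but shCON replicate 3, it ranged from -0.52 to -0.31 and 1 to 2 probes of the set were lower. The XIAP probe gained a call in the authors' processed table (0.32), which made 2 probes higher. Without 1 array it ranged from 0.35 to 0.99, and 1 to 2 probes of the set were higher. Uncalled changes of changing sign without 1 array were those of CASP6 at ILMN_1694877 (-0.14 to 0.18), APAF1 (-0.086 to 0.26) and DIABLO at ILMN_2310589 (-0.014 to 0.064) and ILMN_1665335 (-0.089 to 0.096). The cause was not tested. Without the detection filter all 21 probes entered, and 1 probe pair passed, of CASP4 at ILMN_1678454 and the undetected ILMN_1778059. At an adjusted p below 0.01, 2100 probes were higher and 2008 lower, 1472 genes were higher and 1442 lower, and 4 of the listed pathway genes were higher and 8 lower. Without 1 array, 5 to 7 pathway genes were higher and 8 to 12 lower. Each of 4 single arrays ended the call of ENDOG, APIP, BIRC6 and LMNB1 when left out, and each of 5 that of CASP1, TNFSF10 and DFFB. VWF passed with median scaling (-0.84), in the authors' table and without shCON replicate 3, and COL3A1 in the authors' table and without shCypB replicate 3. EGFR lost its call without shCypB replicate 1, and SLC1A3 without shCypB replicate 2 or shCON replicate 1. Over the list genes and markers named by rule (PIDD1, CFLAR and CD14 were not run), 62 alternative values lost a call, 5 gained one and 416 did neither.

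The replicate numbers did not pair the samples. Deviations from the group means correlated at -0.10, -0.11 and 0.01 between same-numbered arrays, and 1 of 6 arrays correlated best with its own number. With the replicate number as a block, CASP2 at ILMN_1736568 did not pass (log2 change -0.40, adjusted p = 0.069), which left 1 probe lower. Signal over background limits CASP8 and the other undetected probes, and the spread over 3 arrays limits XIAP and APAF1. XIAP also lay near the background. Its detection p was 0.013 on shCypB replicate 2, and 0.012 and 0.021 on shCON replicates 1 and 3. Its log2 change was 0.31 without background correction, against 0.60 as reported.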
